A study of Mus musculus with 12 samples.

Results

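A set of 9 growth factor ligand genes was followed by RNA sequencing through NAD+ exposure of mouse adult neural stem/progenitor cells (aNSPCs): Areg, Hbegf, Egf and Tgfa of the EGF family, Fgf2 and Fgf17 of the FGF family, and Vegfa, Pgf and Angpt2, which encode vascular growth factors. They are 9 of the 55401 genes listed in the deposited tables and were chosen by gene name, with earlier results of these data known. Their values are therefore given as a description, with no test of their own. The cells came from the forebrain of C57BL/6 mice of 8 to 10 weeks and were grown as aNSPCs in medium with 20 ng/mL EGF and 20 ng/mL FGF2. The 12 samples form 4 groups of 3. Under proliferating conditions, Ctrl cells (0 mM NAD+) were compared with cells given 1 mM β-nicotinamide adenine dinucleotide hydrate (NAD+), a coenzyme of cellular redox reactions. Under differentiation conditions, Ctrl and NAD+ cells both also received 1 µM retinoic acid and 5 µM forskolin, per the study's methods. Forskolin activates adenylyl cyclase. The sources used here do not say whether EGF and FGF2 stayed in the medium during differentiation. State and exposure come from the sample titles, since the treatment label of all 12 samples reads untreated. The study describes the replicates as biological repeats, without saying whether they came from separate cultures or mice, and p-values measure only the spread between these samples.

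Growth factor ligands bind receptor tyrosine kinases and act through the Ras-MAPK and PI3K-Akt routes. EGF-family ligands are made as membrane proteins, are released by ADAM proteases and bind EGFR and the other ERBB receptors, and most FGFs bind FGFR1 to FGFR4 with heparan sulphate. EGF and FGF2 are the mitogens used to keep aNSPCs dividing in culture, whereas VEGF-A, placental growth factor (Pgf) and angiopoietins are best known for their actions on blood vessels. Expression was measured as FPKM, which is read abundance scaled to gene length and library size, and the depth of the samples is unknown. The sum of all FPKM values ranged from 308828 to 363330 between samples. The highest sum was that of proliferating Ctrl replicate 1. The other proliferating samples lay between 308828 and 314683, and the differentiation samples between 324252 and 349649. Log2 fold changes below are NAD+ minus Ctrl of log2(FPKM + 0.1), with the limma standard error (SE), and understate the difference of low genes. Of the cell type markers, the 6 for neural stem/progenitor cells summed to 2486 to 2735 FPKM in proliferating Ctrl samples, 1501 to 2005 in proliferating NAD+ samples and 727 to 817 in all differentiation samples. Most of that sum was Fabp7 (means 2107 and 1317 FPKM in proliferating Ctrl and NAD+), whereas the means of Nes were 68.8 and 82.0 and those of Sox2 225 and 216. The 5 astrocyte markers summed to 217 to 360 FPKM under proliferating conditions, to 826 to 920 in differentiation Ctrl samples and to 1217 to 1255 in differentiation NAD+ samples. Gfap made up most of the differentiation sums (means 595 and 977 FPKM in Ctrl and NAD+), and Aldh1l1 (93.5 and 61.3) and Aqp4 (34.8 and 27.8) had lower means with NAD+ in the same samples. The 7 oligodendrocyte lineage markers summed to 334 to 378 and 288 to 322 FPKM in proliferating Ctrl and NAD+ samples, and to 226 to 242 and 156 to 164 in differentiation Ctrl and NAD+ samples. The 5 new neuron markers summed to 21.2 to 34.5 FPKM over all samples. Most of that sum was Map2 (means 16.9 and 15.4 FPKM in proliferating and differentiation Ctrl) and Tubb3 (9.51 and 11.9). In the same groups the means of Dcx were 1.49 and 4.06, of Stmn2 0.023 and 0.27, and of Rbfox3 0.107 and 0.2. Each of the 6 endothelial, 6 microglial and 6 mural or fibroblast markers stayed under 1 FPKM in every sample. In these bulk samples, fewer cells of a type and less RNA per cell cannot be told apart, and the part of cell makeup in the values below was not tested.

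The promoters of Areg, the member with the largest log2 fold change on the log2(FPKM + 0.1) scale under proliferating conditions (by ratio of means Fgf17, at 4.6 against 3.51, was larger), and of Tgfa and Vegfa, the 2 most abundant members, are shown from the RefSeq table used here (GRCm38.p6). Areg lies at chr5:91139599-91148432 on the plus strand (GENCODE M21, mm10), Tgfa at chr6:86195223-86275719 on the plus strand and Vegfa at chr17:46016993-46032369 on the minus strand. The windows are chr5:91139349-91139598 for Areg, chr6:86194972-86195221 for Tgfa and chr17:46032378-46032627 for the first of the 2 starts of Vegfa. Each holds the 250 bases before the start site, outside annotated exons, written 5′ to 3′ on the gene's strand, with capitals for a cAMP response element (TGACGTCA) or a GC box (GGGCGG or its reverse complement).
Areg: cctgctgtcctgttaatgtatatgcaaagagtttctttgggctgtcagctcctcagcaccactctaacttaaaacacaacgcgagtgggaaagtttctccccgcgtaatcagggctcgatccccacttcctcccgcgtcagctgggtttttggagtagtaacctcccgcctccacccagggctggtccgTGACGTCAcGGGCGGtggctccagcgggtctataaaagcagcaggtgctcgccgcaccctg
Tgfa: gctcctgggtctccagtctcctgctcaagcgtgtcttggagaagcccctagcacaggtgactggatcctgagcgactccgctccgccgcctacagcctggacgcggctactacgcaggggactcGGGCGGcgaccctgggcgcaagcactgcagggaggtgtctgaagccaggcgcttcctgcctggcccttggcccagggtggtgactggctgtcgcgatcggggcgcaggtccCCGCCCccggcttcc
Vegfa: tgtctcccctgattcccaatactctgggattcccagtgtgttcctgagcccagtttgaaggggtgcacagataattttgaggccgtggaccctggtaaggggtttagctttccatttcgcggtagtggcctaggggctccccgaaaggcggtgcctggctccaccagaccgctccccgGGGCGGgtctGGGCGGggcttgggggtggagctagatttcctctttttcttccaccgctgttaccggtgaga
The Areg window held a cAMP response element at position -61 from the start, separated by 1 base from a GC box at position -52. Of the 32851 promoter windows in the table, 1.55% held that element and 32.7% held a GC box. The Tgfa window had GC boxes at positions -126 and -15, and the Vegfa window had them at positions -72 and -62. Neither held the cAMP response element. AP-1 letters (TGANTCA), present in 6.75% of all windows, and the letters ACGTG, the core of the hypoxia response element and present in 16.6%, were in none of the 3 windows. All searches covered both strands, and a match is a description of letters, not of a bound site. The other 6 windows searched, for Egf, Fgf2, Pgf and the second start of Vegfa, lie over annotated exons and are not shown. Of these, the window of the second Vegfa start held ACGTG at position -211, and that of the second Egf start at position -60. Sequence beyond the 250 bases was not searched, nor was any window of Hbegf, Fgf17 or Angpt2. Egf is at chr3:129677565-129755316 (minus strand), Fgf2 at chr3:37348346-37410108 (plus strand), Pgf at chr12:85166635-85177790, Fgf17 at chr14:70636203-70642268 and Angpt2 at chr8:18690263-18741562 (all minus strand).

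Under proliferating conditions, the EGF-family genes Areg and Hbegf were higher in every NAD+ sample than in any Ctrl sample. Areg encodes amphiregulin, an EGFR ligand with a heparin-binding stretch. Its FPKM was 0.14, 0.46 and 0.27 in the Ctrl samples and 0.75, 1.29 and 1.01 in the NAD+ samples. The groups did not overlap, and the means were 0.29 ± 0.161 and 1.02 ± 0.27 (SD, n = 3 each), a log2 fold change of 1.57 (SE 0.36). Hbegf encodes heparin-binding EGF-like growth factor, which binds EGFR and ERBB4. Its FPKM was 3.07, 3.25 and 3.39 in Ctrl and 5.19, 5.06 and 4.66 in NAD+, again without overlap, with means of 3.24 ± 0.16 and 4.97 ± 0.276 (SD, n = 3 each) and a log2 fold change of 0.60 (SE 0.11). The other EGF-family members overlapped between the groups. Tgfa, the gene of transforming growth factor alpha, read 4.71, 6.80 and 1.10 FPKM in Ctrl and 5.42, 6.31 and 5.72 in NAD+. Its log2 fold change of 0.79 (SE 0.60) was set by the low Ctrl replicate 3 and was 0.036 without that sample. Egf itself was near the lower limit, at 0.09, 0.14 and 0.14 FPKM in Ctrl and 0.08, 0.14 and 0.10 in NAD+.

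Of the FGF-family members under proliferating conditions, neither separated the groups. Fgf2, the gene of basic FGF, read 0.36, 0.12 and 0.51 FPKM in Ctrl and 0.78, 0.07 and 0.88 in NAD+. Replicate 2 was the lowest of both groups, and the log2 fold change of 0.42 (SE 0.74) ranged from -0.03 without NAD+ replicate 3 to 1.23 without NAD+ replicate 2. Fgf17, of the FGF8 subfamily, read 0.03, 0.09 and 0.03 FPKM in Ctrl and 0.22, 0.38 and 0.09 in NAD+. The ranges met at 0.09 FPKM, and the gene passed the filter of a mean of 0.1 FPKM only through its NAD+ samples. Its log2 fold change was 1.06 (SE 0.43), and it was 0.22 with 1 added before log2 and 1.94 with 0.01 added.

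Of the vascular factors under proliferating conditions, Angpt2, which encodes angiopoietin 2, a context-dependent antagonist of the TIE2 receptor, was higher in every NAD+ sample. Its FPKM was 0.90, 1.32 and 1.16 in Ctrl and 1.83, 2.82 and 2.53 in NAD+, with means of 1.13 ± 0.212 and 2.39 ± 0.509 (SD, n = 3 each) and a log2 fold change of 1.02 (SE 0.22). Vegfa, the main angiogenic VEGF gene, was by far the most abundant member, at 28.76, 42.87 and 32.94 FPKM in Ctrl and 27.30, 29.07 and 25.68 in NAD+. The groups overlapped, and the log2 fold change of -0.33 (SE 0.15) was -0.17 without Ctrl replicate 2. Pgf, a VEGF-family gene whose product binds FLT1, read 1.27, 0.82 and 0.65 FPKM in Ctrl and 0.81, 1.00 and 0.90 in NAD+, a log2 fold change of 0.03 (SE 0.26).

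**Figure D1:**
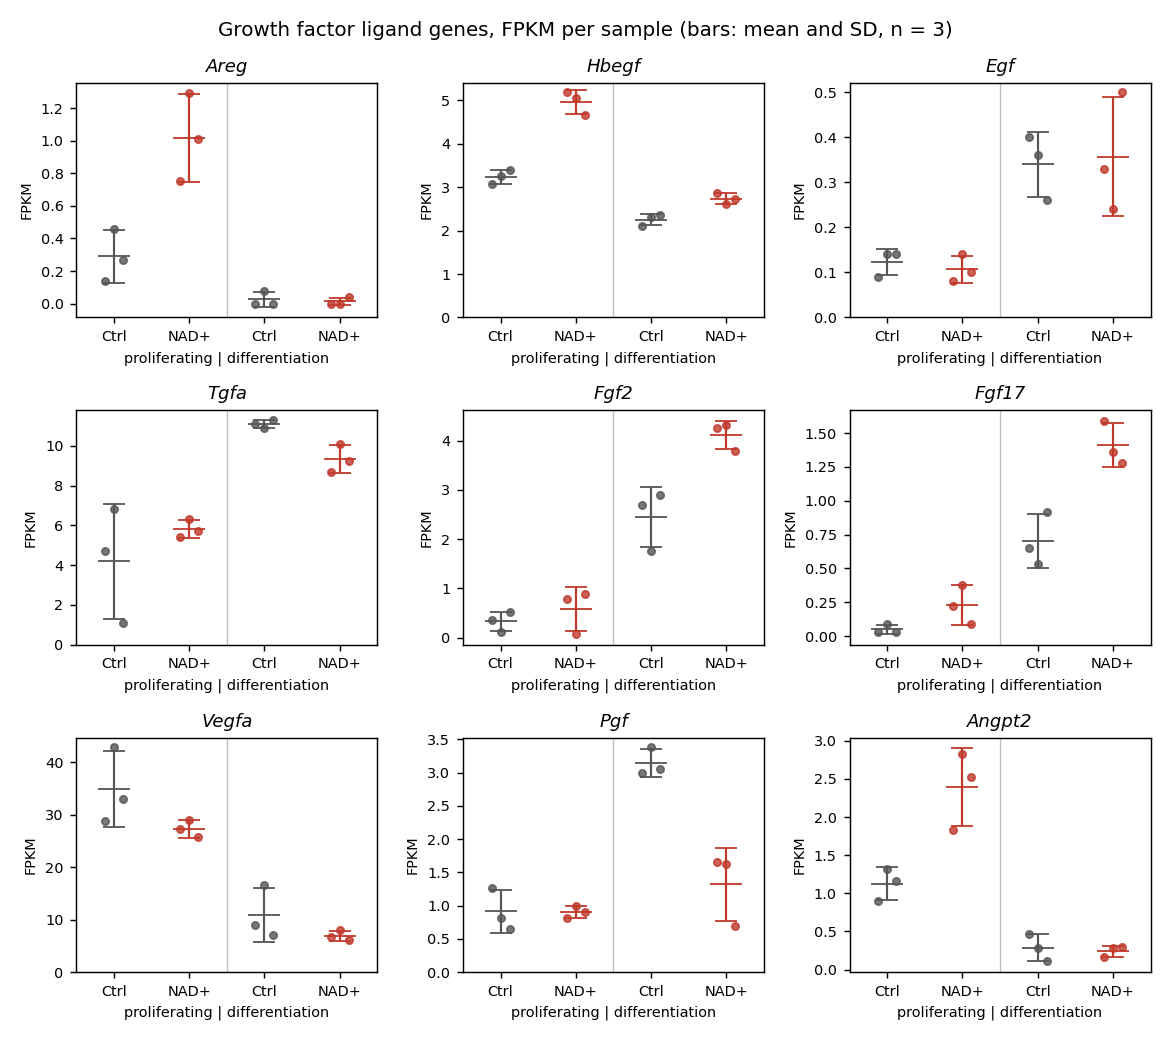
FPKM of the 9 ligand genes in each of the 12 samples, 1 panel per gene, by group, with the group mean and SD (n = 3). Areg and Angpt2 are highest in the proliferating NAD+ samples, Fgf2 and Fgf17 in the differentiation NAD+ samples, and Pgf in the differentiation Ctrl samples.

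Counted over the 9 members under proliferating conditions, 3 had no overlap between NAD+ and Ctrl, all higher with NAD+, where 24.1% of the 18597 genes tested did not overlap in one direction or the other. At an unadjusted limma p under 0.05, 4 of 9 members passed (Areg, Hbegf, Fgf17 and Angpt2), against 15.4% of genes. The study's rule, an unadjusted p under 0.05 and a ratio of means over 2, was applied here with the limma p. By it, 3 members passed (Areg, Fgf17 and Angpt2), against 3.01% of genes. The study's own p-values were not used, so these are not the study's calls. Fgf17 is in both counts although it passed the filter only through its NAD+ samples, where it was higher. None of the 9 had a Benjamini-Hochberg adjusted p under 0.05 in limma, against 0.145% of genes (27 genes). The median log2 fold change was 0.60 over the members and 0.07 over all genes tested. Since the members were chosen with these values known, nothing is read from the counts.

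Under differentiation conditions, the EGF-family gene Areg was listed at 0 in 4 of 6 samples and read 0.08 in Ctrl replicate 2 and 0.04 in NAD+ replicate 3, below the filter. Hbegf, at chr18:36504927-36515805 on the minus strand, was again higher in every NAD+ sample, at 2.10, 2.31 and 2.35 FPKM in Ctrl and 2.86, 2.61 and 2.72 in NAD+, but the log2 fold change was 0.27 (SE 0.09). Tgfa was lower in every NAD+ sample. It read 11.08, 10.91 and 11.28 FPKM in Ctrl and 8.69, 10.09 and 9.24 in NAD+, with means of 11.1 ± 0.185 and 9.34 ± 0.705 (SD, n = 3 each) and a log2 fold change of -0.25 (SE 0.07). Egf overlapped between the groups, at 0.40, 0.36 and 0.26 FPKM in Ctrl and 0.33, 0.24 and 0.50 in NAD+.

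Both FGF-family members were higher in every differentiation NAD+ sample than in any differentiation Ctrl sample. Fgf2 read 2.70, 1.76 and 2.90 FPKM in Ctrl and 4.26, 4.31 and 3.80 in NAD+, with means of 2.45 ± 0.609 and 4.12 ± 0.281 (SD, n = 3 each) and a log2 fold change of 0.75 (SE 0.19). Fgf2 shares 640 exonic bases, 9.44% of its exonic length, with Nudt6 on the opposite strand, and the library kit named in the methods is not stated to keep strand, so reads there cannot be assigned to one gene. Nudt6 means were 1.78, 1.54, 1.29 and 1.16 FPKM in the proliferating Ctrl, proliferating NAD+, differentiation Ctrl and differentiation NAD+ groups. The part of shared reads in the Fgf2 values was not tested. Fgf17 read 0.65, 0.53 and 0.92 FPKM in Ctrl and 1.59, 1.36 and 1.28 in NAD+, with means of 0.70 ± 0.2 and 1.41 ± 0.161 (SD, n = 3 each) and a log2 fold change of 0.94 (SE 0.21).

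Among the vascular factors, Pgf was lower in every differentiation NAD+ sample. It read 3.0, 3.39 and 3.06 FPKM in Ctrl and 1.65, 1.62 and 0.69 in NAD+, with means of 3.15 ± 0.21 and 1.32 ± 0.546 (SD, n = 3 each) and a log2 fold change of -1.28 (SE 0.31), or -0.90 without the low NAD+ replicate 3. Vegfa read 8.91, 16.67 and 7.14 FPKM in Ctrl and 6.69, 8.00 and 6.09 in NAD+, with overlap. Its log2 fold change of -0.56 (SE 0.30) was -0.21 without the high Ctrl replicate 2. Angpt2, which separated the groups under proliferating conditions, was low and overlapping here, at 0.47, 0.28 and 0.11 FPKM in Ctrl and 0.16, 0.28 and 0.29 in NAD+.

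**Figure D2:**
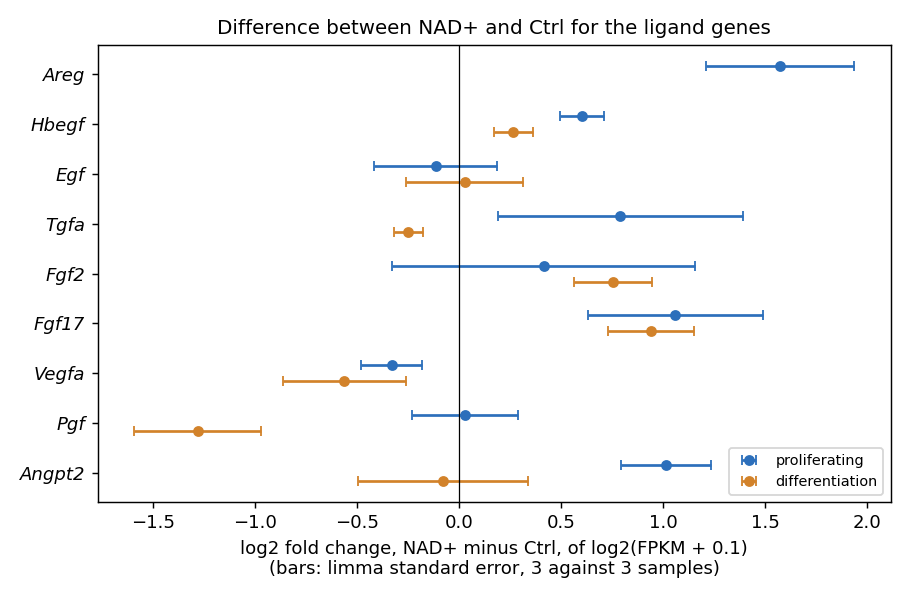
Log2 fold change of NAD+ over Ctrl for each ligand gene, on the log2(FPKM + 0.1) scale, under proliferating and differentiation conditions. Points are limma estimates from 3 against 3 samples and bars are 1 standard error, and Areg lacks a differentiation point because it was below the filter. Areg, Fgf17 and Angpt2 have the highest proliferating estimates, at 1.57, 1.06 and 1.02, and Pgf has the lowest differentiation estimate, at -1.28. Under proliferating conditions Fgf17 passed the filter only through its NAD+ samples.

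Over the 8 members that passed the filter under differentiation conditions, 3 lay without overlap above Ctrl (Hbegf, Fgf2 and Fgf17) and 2 below it (Tgfa and Pgf), where 30.7% of the 19611 genes tested did not overlap. The same 5 genes had an unadjusted limma p under 0.05, against 24.2% of genes. Fgf17 (higher) and Pgf (lower) also met the study's rule, against 4.05% of genes. None of the 8 had an adjusted p under 0.05, against 6.92% of genes (1357 genes). The median log2 fold change was -0.03 over the members and -0.08 over all genes. In the contrast of the NAD+ effect between the states, 0 of 9 members had an adjusted p under 0.05, against 0.467% of 19498 genes. A negative difference at an unadjusted limma p under 0.05 was seen for 4 (Areg, Hbegf, Pgf and Angpt2), against 12.2% of genes. The median difference was -0.16 over all genes and -0.34 over the members. Areg is counted in both, though it entered this fit only through its proliferating samples and lay near 0 under differentiation conditions. Nothing is read from these counts.

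The states were deposited as separate tables, and their levels are set side by side without a test. In Ctrl cells, 5 members were higher in every differentiation sample than in any proliferating sample. The ratio of means was 14 for Fgf17, whose proliferating mean was 0.05 FPKM, 7.43 for Fgf2, 3.45 for Pgf, 2.76 for Egf and 2.64 for Tgfa. The other 4 were lower in every differentiation sample, with ratios of 0.254 for Angpt2, 0.313 for Vegfa and 0.696 for Hbegf, and with Areg listed at 0 in 2 of the 3 differentiation Ctrl samples. Thus 9 of 9 members did not overlap between the states in Ctrl cells, where 61.8% of genes did not. In NAD+ cells 8 of 9 did not overlap, where 66.8% of genes did not, and the 8 kept their directions. The exception was Pgf, whose differentiation mean was 1.46 times its proliferating mean in NAD+ cells. For Angpt2 the state ratio was 0.102 in NAD+ cells.

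The order of the levels differed between the groups. In proliferating Ctrl samples Vegfa led at 34.9 FPKM, Tgfa (4.20) and Hbegf (3.24) followed with overlapping ranges, then Angpt2 (1.13) and Pgf (0.913), also overlapping. Fgf2, Areg, Egf and Fgf17 came last, each overlapping its neighbour in this order. In proliferating NAD+ samples Vegfa, Tgfa, Hbegf and Angpt2 were each above the next without overlap, and Areg, at 1.02 FPKM, came next with a range overlapping that of Pgf (0.903). In differentiation Ctrl samples Tgfa (11.1) and Vegfa (10.9) led with overlapping ranges, followed by Pgf (3.15), then Fgf2 (2.45) and Hbegf (2.25), which overlapped. In differentiation NAD+ samples Tgfa (9.34) stood above Vegfa (6.93) without overlap, then came Fgf2 (4.12) and Hbegf (2.73), which did not overlap, and Fgf17 (1.41) and Pgf (1.32) overlapped. Areg was the lowest member in both differentiation groups.

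For the 6 members with a mean of at least 1 FPKM over the 12 samples, the genes with the most similar levels were found by Pearson's r of log2(FPKM + 0.1) among 12928 genes. These values describe 12 samples in 4 groups from separately deposited tables, and most of the pattern is the difference between states. Vegfa was most like P4ha1 (r = 0.991), a collagen prolyl hydroxylase subunit gene, and Slc16a3 (r = 0.982), a lactate transporter gene. Hbegf was most like Ext2 (r = 0.986), which encodes a heparan sulphate polymerase subunit, and Slc25a30 (r = 0.976). Angpt2 was most like Gm5124 (r = 0.987) and Myo1c (r = 0.986). Tgfa was closest to Zfand1 (r = 0.985) and Gm18666 (r = 0.973), Fgf2 to 5031439G07Rik (r = 0.948) and Gm5628 (r = 0.941), and Pgf to Grtp1 (r = 0.940) and 2310022B05Rik (r = 0.919).

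Receptors for these ligands were read from a list of 16 genes, of which 10 passed the filter in each state. The EGF receptor gene Egfr was well expressed, at 25.32, 31.39 and 27.83 FPKM in proliferating Ctrl samples and 25.44, 21.55 and 21.49 in NAD+ samples, with a log2 fold change of -0.30 (SE 0.11, adjusted p = 0.283 in limma). Under differentiation conditions Egfr read 25.24, 25.70 and 26.69 FPKM in Ctrl and 23.86, 22.48 and 23.20 in NAD+, a log2 fold change of -0.16 (SE 0.05, adjusted p = 0.115 in limma). Erbb2, the co-receptor gene without a ligand of its own, ranged from 2.26 to 4.63 FPKM over all samples. Erbb4 read 0.39, 8.28 and 7.56 FPKM in proliferating Ctrl samples and 6.46, 4.79 and 5.43 in NAD+ samples. Ctrl replicate 1 was far below the others, and the log2 fold change of 0.83 was -0.51 without it. Erbb3 did not exceed 0.22 FPKM in any sample. Under differentiation conditions it read 0.17, 0.17 and 0.22 FPKM in Ctrl and 0.12, 0.10 and 0.03 in NAD+, without overlap. The log2 fold change of Erbb3 was -0.68 (SE 0.32, adjusted p = 0.264 in limma). Under proliferating conditions it was below the filter. The study reported lower Erbb3 mRNA with NAD+ by RT-PCR in both states.

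Fgfr2, 1 of the FGF receptor genes, rose with NAD+ under differentiation conditions. It was the 1 receptor past the adjusted threshold of the 10 tested, where 6.92% of all genes passed. It read 6.43, 6.19 and 6.15 FPKM in Ctrl and 8.80, 8.43 and 8.16 in NAD+, a log2 fold change of 0.43 (SE 0.06, adjusted p = 0.0149 in limma). The call was lost in each fit without 1 of the Ctrl samples, with an adjusted p of up to 0.0599 in limma. Fgfr1 did not overlap in either state, with means of 17.4 and 22.2 FPKM under proliferating conditions and 19.7 and 24.2 under differentiation conditions, but its adjusted p was 0.239 and 0.0826 in limma. Fgfr3 had means of 30.5 and 24.1 FPKM in differentiation Ctrl and NAD+ samples, a log2 fold change of -0.35 (SE 0.09, adjusted p = 0.065 in limma). Fgfr4 stayed at or under 0.07 FPKM in all samples.

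The receptors of the vascular factors were low. Kdr, the main VEGF-A receptor gene of blood vessels, reached 0.14 FPKM, Tek, which encodes TIE2, reached 0.08, and Tie1 reached 0.02. Flt1, whose product binds VEGF-A and Pgf, read 0.23, 0.44 and 0.46 FPKM in proliferating Ctrl samples and 0.60, 0.75 and 0.60 in NAD+ samples, without overlap (log2 fold change 0.69, adjusted p = 0.311 in limma). The neuropilin co-receptor genes were present, with group means of 2.70 to 3.58 FPKM for Nrp1 and 1.24 to 2.85 for Nrp2.

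**Figure D3:**
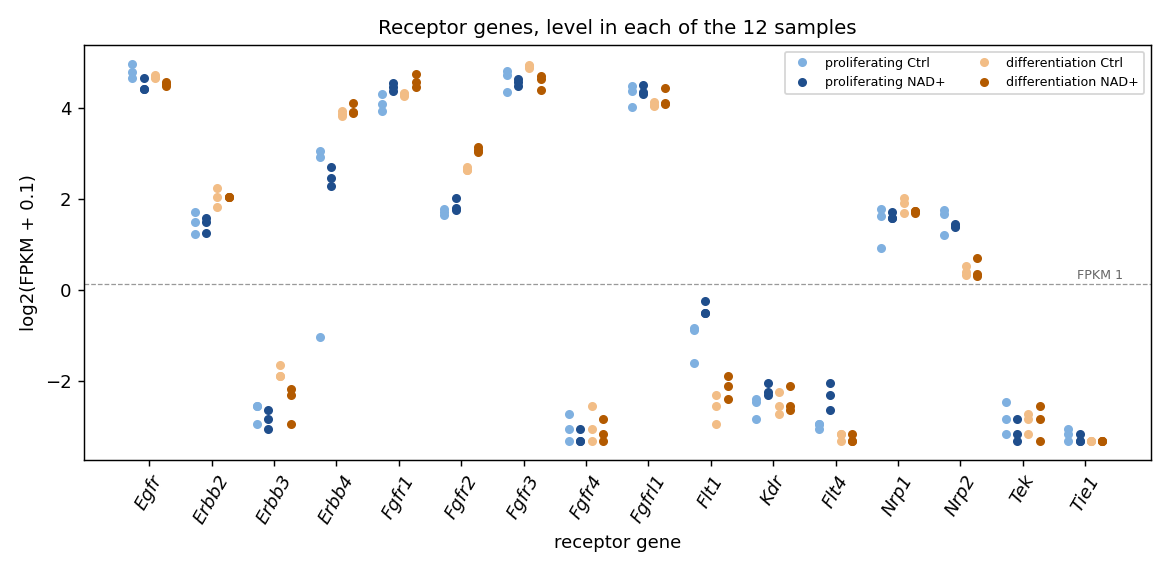
Levels of the 16 receptor genes as log2(FPKM + 0.1) in each of the 12 samples, with a dashed line at 1 FPKM. Egfr and Fgfr1 to Fgfr3 lie above the line in every sample, whereas Kdr, Flt4, Tek, Tie1 and Fgfr4 lie below it in every sample.

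Beside the members, lists of 73 genes were examined: the receptors, 7 other EGF-family ligands, 20 other FGF-family genes, 5 other VEGF and angiopoietin ligands, 7 genes of ligand shedding and 18 feedback and target genes of receptor signalling. Not all of the 20 FGF-family genes, which include Fgf11, Fgf12, Fgf13 and Fgf14, encode receptor ligands. Under proliferating conditions 46 were tested and 0 had an adjusted limma p under 0.05, against 0.145% of all genes tested. At an unadjusted limma p under 0.05, 6 were higher and 7 lower, against 15.4%. By the study's rule 1 was higher, against 3.01%. That gene was Dusp4, with means of 2.77 FPKM in proliferating Ctrl and 6.29 in proliferating NAD+ samples. Under differentiation conditions 46 were tested and 7 changed, 5 up and 2 down, by adjusted limma p, against 6.92% of all genes tested. The median log2 fold change of the tested genes was 0.09 in each state.

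Of the ligand genes outside the members, 2 fell under differentiation conditions and 1 rose by adjusted limma p, where 6.92% of all genes tested passed. Fgf1, the gene of acidic FGF, read 9.55, 9.77 and 8.64 FPKM in Ctrl and 5.43, 5.81 and 4.85 in NAD+, a log2 fold change of -0.79 (SE 0.09, adjusted p = 0.00869 in limma), opposite in direction to Fgf2 and Fgf17 in the same samples. This call held without each sample in turn. Vegfb, a VEGF gene whose product binds FLT1, read 21.16, 20.98 and 18.99 FPKM in Ctrl and 14.68, 15.06 and 13.51 in NAD+, a log2 fold change of -0.50 (SE 0.07, adjusted p = 0.014 in limma), and its call was lost without Ctrl replicate 1 or 2. Angpt1, whose product activates TIE2, read 4.03, 3.20 and 4.38 FPKM in Ctrl and 6.77, 6.35 and 6.19 in NAD+. Its log2 fold change was 0.73 (SE 0.12, adjusted p = 0.0239 in limma), and the call was lost without Ctrl replicate 1 or any 1 of the NAD+ samples.

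Many of the 18 feedback and target genes are induced by MAPK signalling below receptor tyrosine kinases, and some restrain signalling. By adjusted limma p under differentiation conditions, 3 of the 18 rose and 0 fell, where 6.92% of all genes tested passed in either direction. Etv5, an ETS transcription factor gene, read 5.86, 7.34 and 7.37 FPKM in Ctrl and 11.27, 12.54 and 15.32 in NAD+, a log2 fold change of 0.91 (SE 0.14, adjusted p = 0.0186 in limma). Ier3, an immediate early gene, read 6.87, 8.30 and 9.18 FPKM in Ctrl and 14.74, 16.27 and 22.41 in NAD+, a log2 fold change of 1.11 (SE 0.18, adjusted p = 0.0202 in limma). Dusp5, which encodes a nuclear ERK phosphatase, read 0.82, 0.88 and 0.73 FPKM in Ctrl and 1.25, 1.81 and 1.94 in NAD+, a log2 fold change of 0.94 (SE 0.19, adjusted p = 0.0392 in limma). The calls of Etv5 and Ier3 were lost without any 1 of the Ctrl samples or NAD+ replicate 2, and that of Dusp5 in 5 of the 6 fits with 1 sample left out (all but NAD+ replicate 1). Under proliferating conditions Dusp5 read 3.61, 2.93 and 3.11 FPKM in Ctrl and 6.03, 6.11 and 6.47 in NAD+, a log2 fold change of 0.93 (adjusted p = 0.0573 in limma). The 6 tested genes of ligand shedding, ADAM and rhomboid-family genes, had 0 adjusted calls in either state, against 0.145% and 6.92% of all genes. At an unadjusted limma p under 0.05, 2 were higher under proliferating conditions, against 15.4% of all genes tested. Under differentiation conditions 2 were higher and 1 lower, against 24.2%.

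Set side by side between the states, 12 of the 18 feedback and target genes were lower in every differentiation Ctrl sample than in any proliferating Ctrl sample and 2 were higher (Lrig1 and Lrig3), where 33.8% of all genes were lower without overlap. Dusp6, an ERK phosphatase gene, had means of 49.5 FPKM in proliferating and 0.96 in differentiation Ctrl samples. For Spry4, a Sprouty inhibitor gene, these were 24.1 and 0.92 FPKM, and for Etv5 84.8 and 6.86. In NAD+ samples the corresponding means were 65.6 and 1.29 FPKM for Dusp6, 26.8 and 1.37 for Spry4, and 105.2 and 13.0 for Etv5. The rises of Etv5, Ier3 and Dusp5 with NAD+ in differentiation thus took place at 13.0, 17.8 and 1.67 FPKM, of which the first and the last remained below their proliferating Ctrl means (84.8 and 3.22) and Ier3 lay above its own (12.5).

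**Figure D4:**
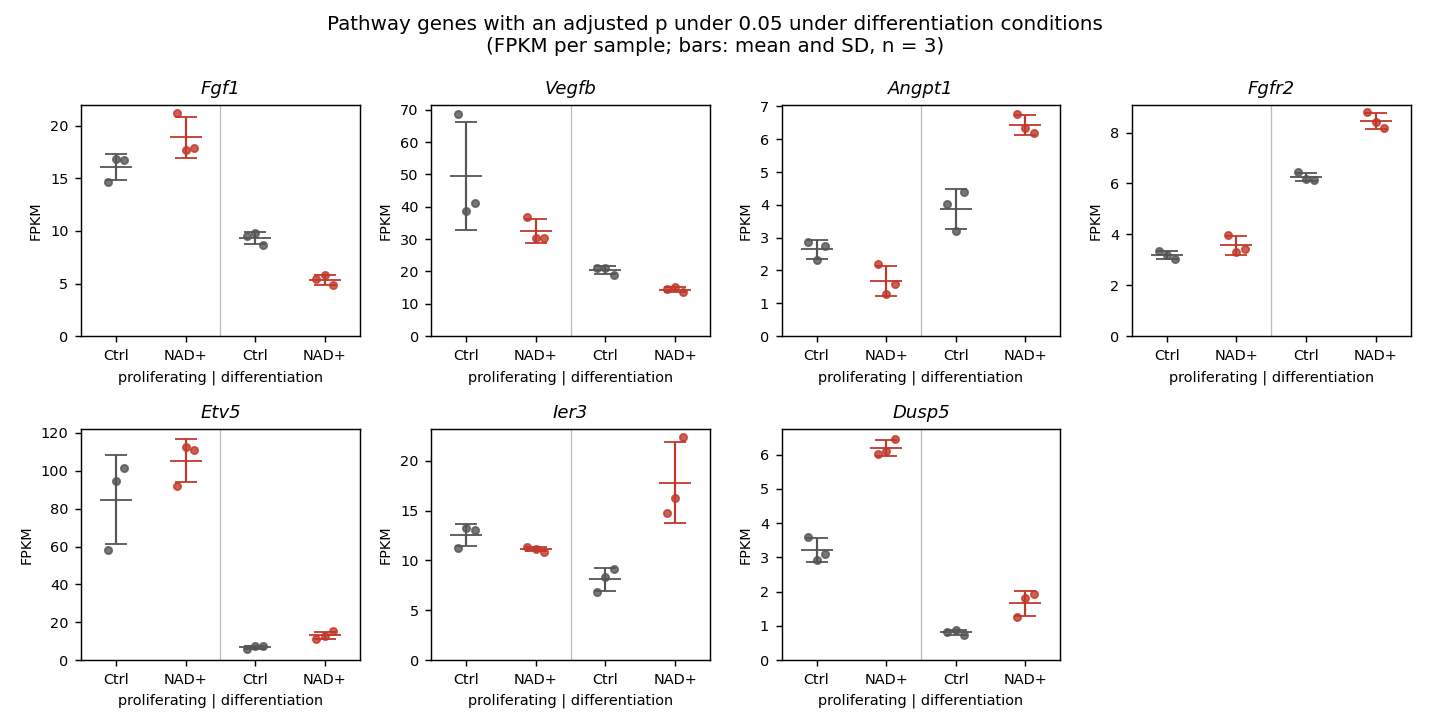
FPKM of the 7 pathway genes with an adjusted limma p under 0.05 under differentiation conditions, in each of the 12 samples by group, with the group mean and SD (n = 3). In differentiation samples Angpt1, Dusp5, Etv5, Fgfr2 and Ier3 are higher with NAD+ and Fgf1 and Vegfb are lower, with no overlap between the groups.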

How the data were processed

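RNA of 12 samples (4 groups of 3) was sequenced. The authors aligned reads with Hisat2 v2.0.5 (mm10), counted the uniquely aligned ones with FeatureCounts v2.0.1, and deposited FPKM values per sample in 1 table per state, each with 55401 genes. All FPKM values are multiples of 0.01, and the program behind them is not given in the sources used here. The deposited tables also hold the authors' fold change (ratio), its log2, and for each gene a p-value and q-value, none of which was used.

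Members, gene lists and motifs were chosen with earlier results of these data known. Named were the 9 members, the 16 receptors, list genes with an adjusted p under 0.05 in either state, and for each member averaging at least 1 FPKM the 2 genes with the highest Pearson r. To the deposited FPKM values 0.1 was added before log2, only genes averaging at least 0.1 FPKM in a fit's samples were kept, and limma 3.58.1 in R 4.3.3 (variance trend, two-sided) compared NAD+ with Ctrl in each state. A fit of all 12 samples gave the contrast of NAD+ effects between states. P-values were adjusted by the Benjamini-Hochberg method over all genes tested. The study's rule was applied with the unadjusted limma p, so its counts here are not those of the study. For its ratio, values of 0 were raised to 0.0001. Fits were checked on simulated data. GENCODE M21 held 55141 of the gene IDs and gave positions. Promoter sequences are from RefSeq (GRCm38.p6). Alternatives used 1 or 0.01 added, no filter or a mean of at least 1, median-ratio or quantile scaling, the replicate number as a block, no variance moderation, the study's rule, and each sample left out. Same-numbered samples of a state correlated around their group means at 0.021 to 0.111, and differently numbered ones at -0.112 to 0.0734. The sources do not say whether the numbers are pairs. The fits reported did not take them as pairs, and pairing is not excluded. Python 3.11.15 was used with pandas 2.3.3 and matplotlib 3.10.9 for tables and plots.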

Additional observations from a re-analysis of the deposited data

Results flagged for a closer look

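For 3 genes of the pathway lists, the NAD+ effect differed between the states in the contrast over all 12 samples. Fgf1 was lower with NAD+ under differentiation conditions (log2 fold change -0.79) and read 14.67, 16.82 and 16.78 FPKM in Ctrl and 21.18, 17.68 and 17.90 in NAD+ under proliferating conditions (log2 fold change 0.23). The difference was -1.02 (SE 0.14, adjusted p = 0.0178 in limma). For Ier3 the difference was 1.28 (SE 0.21, adjusted p = 0.0342 in limma), from log2 fold changes of 1.11 under differentiation and -0.17 under proliferating conditions. For Angpt1 it was 1.38 (SE 0.25, adjusted p = 0.0495 in limma). Angpt1 read 2.87, 2.33 and 2.74 FPKM in proliferating Ctrl samples and 2.19, 1.28 and 1.59 in NAD+ samples, a log2 fold change of -0.65, against 0.73 under differentiation conditions.

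Of the 12 fits that left out 1 sample, the difference for Fgf1 kept an adjusted p under 0.05 in 9, that for Ier3 in 3 and that for Angpt1 in 1. Fgf1 lost it without proliferating NAD+ replicate 3 or differentiation Ctrl replicate 1 or 2.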

How the results depend on the processing

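No named gene past the threshold changed direction in the alternatives run; the sign changes of other genes are given below. Under proliferating conditions the 27 genes called by adjusted p became 9 without the filter, 75 with a mean FPKM of at least 1, 60 with quantile scaling, 0 without variance moderation (2702 at an unadjusted p under 0.05) and 559 by the study's rule, and ranged from 0 (without Ctrl replicate 3 or NAD+ replicate 1 or 2) to 36 without 1 sample. Pathway calls there were 1 instead of 0 with a mean of at least 1 and by the study's rule, and 0 to 1 without 1 sample. Member calls were 3 by the study's rule and 0 without 1 sample. Under differentiation conditions the 1357 calls became 594 without moderation and 795 by the study's rule, and ranged from 328 without Ctrl replicate 1 to 719. The 7 pathway calls became 3 without moderation and 2 by the study's rule, and ranged from 1 to 7. Member calls, 0 in the fit reported, were 2 with 1 added (Fgf17 and Pgf), 3 with a mean of at least 1 (Fgf17, Fgf2 and Pgf), 1 with median-ratio and 1 with quantile scaling (Fgf17), 2 by the study's rule, and 0 to 1 without 1 sample (Pgf without NAD+ replicate 3). Calls of the contrast between states, 91 of all genes, became 139 with 1 added and 12 to 195 without 1 sample. The 3 pathway calls became 1 without the filter and 1 without moderation, and 0 to 3 without 1 sample. The causes were not tested.

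With the replicate block, calls of all genes were 0 (3094 at an unadjusted p under 0.05) under proliferating conditions, 758 under differentiation conditions and 47 for the contrast, where 1 pathway gene (Ier3) remained. Pathway calls under differentiation conditions were 5, without Angpt1 (adjusted p = 0.054 in limma) and Dusp5 (0.0831). The sources used here do not say whether the numbers pair the samples. Which of the 2 fits is the better one is therefore unknown, and the lower counts with the block stand as a limit.

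With median-ratio scaling the majority direction turned for differentiation calls and for the contrast. The share of higher genes among differentiation calls was 32.8%, and 53.6% with median-ratio and 49.96% with quantile scaling; for proliferating calls it was 33.3% and 21.2% with median-ratio scaling, and for the contrast 47.3%, 74.2% and 69.2%. Median-ratio scaling moved the median of all genes in the contrast from -0.16 to -0.02. Of 112 log2 fold changes of members under other settings, 10 moved by over 1 SD of the replicates and 3 changed sign, as did 9 of 101 without 1 sample. For the named pathway genes 0 of 222 values under other settings changed sign and 9 of 192 without 1 sample, Erbb4 under proliferating conditions among them. The depth is unknown, so no counting error can be given for Areg, Egf and Fgf17, the lowest members.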
